A study of Mus musculus with 4 samples.

Results

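Periostin and 7 other secreted proteins of the extracellular matrix, encoded by Postn, Tgfbi, Tnc, Fn1, Sparc, Spp1, Thbs1 and Thbs2, were followed in a mouse mammary carcinoma line. Their measurements were all probe sets that the array annotation pairs with a single one of these symbols: 17 probe sets for 7 of the 8 genes, out of 34945 probe sets and 18193 genes named this way. Spp1, which encodes osteopontin, had no such probe set, and 1 probe set that the annotation gives to Thbs1 together with another gene was left out. The genes were chosen by their role as matricellular or niche proteins, with the difference between the cell groups on these same arrays already known and with Postn selected on it. Their differences are therefore given as a description, with standard errors and 95% intervals but without a test of their own.

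The samples were cultured 4T1 cells, a line that spreads to distant organs when grown in mice. The groups were 2 CD44v8-10-positive and 2 CD44v8-10-negative samples, separated by a variant-exon form of CD44, the hyaluronan receptor at the cell surface. All were grown in serum-containing medium under normoxia and picked by hand under a dissecting microscope, with no drug, transgene or host, and total RNA went onto 1 one-colour Affymetrix array per sample. The labels do not say whether samples of a group were cultured separately, and the p-values therefore reflect sample-to-sample spread that may be technical only.

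Matricellular proteins are secreted into the matrix, where they mainly tell cells how to adhere, move and respond to growth factors rather than bear load. Periostin, a protein with repeated fasciclin-type domains, binds collagens and alpha-v integrins, and Tgfbi encodes its closest paralog. In breast tumours periostin is made largely by stromal fibroblasts, and periostin and tenascin C are known as parts of the niche that supports metastatic cells in the lung.

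Promoter windows were available for 6 of the 8 genes, 9 windows in all, from RefSeq (GRCm38.p6). They are given as the 250 bases before the annotated start, 5′ to 3′ on the gene's strand. The sequences below are those of Postn, the member with the largest difference between the groups, of its paralog Tgfbi, and of Sparc, whose signals lay on the opposite side. Postn has an upstream start (chr3:54359017-54359266, + strand) and a downstream start (chr3:54360857-54361106, + strand), Tgfbi lies at chr13:56609336-56609585 (+ strand) and Sparc at chr11:55420081-55420330 (- strand). Capitals mark the letters of a TATA box (TATAAA), an E-box (CANNTG) or an AP-1 site (TGANTCA), each searched on both strands.
Postn, upstream start: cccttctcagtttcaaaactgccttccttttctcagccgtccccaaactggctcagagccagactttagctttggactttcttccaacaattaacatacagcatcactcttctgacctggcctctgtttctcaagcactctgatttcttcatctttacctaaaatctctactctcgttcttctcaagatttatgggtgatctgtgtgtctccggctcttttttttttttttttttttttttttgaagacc
Postn, downstream start: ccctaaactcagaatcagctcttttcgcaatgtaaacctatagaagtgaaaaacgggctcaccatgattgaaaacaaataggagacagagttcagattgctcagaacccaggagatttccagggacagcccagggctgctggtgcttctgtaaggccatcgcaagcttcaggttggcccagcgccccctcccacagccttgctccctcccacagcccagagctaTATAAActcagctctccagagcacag
Tgfbi: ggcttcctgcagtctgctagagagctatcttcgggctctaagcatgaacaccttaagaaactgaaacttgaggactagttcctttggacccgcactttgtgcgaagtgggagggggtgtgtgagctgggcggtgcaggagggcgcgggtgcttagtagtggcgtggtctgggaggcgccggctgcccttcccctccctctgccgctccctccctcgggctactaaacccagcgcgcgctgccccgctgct
Sparc: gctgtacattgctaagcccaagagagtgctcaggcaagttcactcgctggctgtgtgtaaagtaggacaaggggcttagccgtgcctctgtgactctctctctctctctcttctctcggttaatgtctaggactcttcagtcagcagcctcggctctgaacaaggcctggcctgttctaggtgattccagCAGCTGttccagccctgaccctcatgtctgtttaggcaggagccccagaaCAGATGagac

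The downstream start of Postn had a TATAAA that began 26 bases before it, and its upstream start had none of these motifs. On either strand TATAAA was found in 12.4% of 32817 windows of this length over all genes. The Tgfbi window also held none of them and differed in base composition: it was 62.4% G or C with 15 CpG pairs, against 52.0% and 4 for the downstream start of Postn and medians of 52.4% and 6 over all windows. Sparc held E-boxes that began 60 and 10 bases before the start, a motif present in 66.2% of all windows. These are matches of letters and show no binding.

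Signals are quantile-normalized intensities, which give all 4 arrays the same distribution, since the deposited arrays were not equally bright (2% trimmed means from 196 to 345). A probe set was tested when its mean over the arrays reached the 40th percentile, a signal of 19.4. Of the 17 member probe sets 10 passed this level, in 6 of the genes. Differences are positive minus negative on the log2(signal + 16) scale, which understates those of dim genes. Their standard errors and intervals are from limma, which draws each gene's spread toward that of genes of like signal (12.2 total degrees of freedom). They are thus not the spread of a gene's own 4 arrays alone. The epithelial markers Krt8 and Krt18 had signals of 7719 to 12998 on every array, and all 7 epithelial markers were above the level. All 7 had positive differences with a median of 0.49, and 2 passed over all genes. Among all 11956 genes tested 54.3% had positive differences, the median was 0.03 and 9 (0.0753%) passed. Without negative replicate 1 the differences of Cdh1, Krt8 and Krt18 were negative. Epcam, an epithelial adhesion molecule, had 2309 and 2479 in positive cells against 940 and 930 in negative cells (1.34, limma adjusted p 0.0118). Krt14, a basal keratin, had 681 and 831 against 218 and 149 (1.97, limma adjusted p 0.00547). Both calls were lost with no scaling, no filter, no intensity trend or without positive replicate 2, and that of Epcam also without positive replicate 1 or with the mean of its probe sets. Their part in the results below was not tested.

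**Figure D1:**
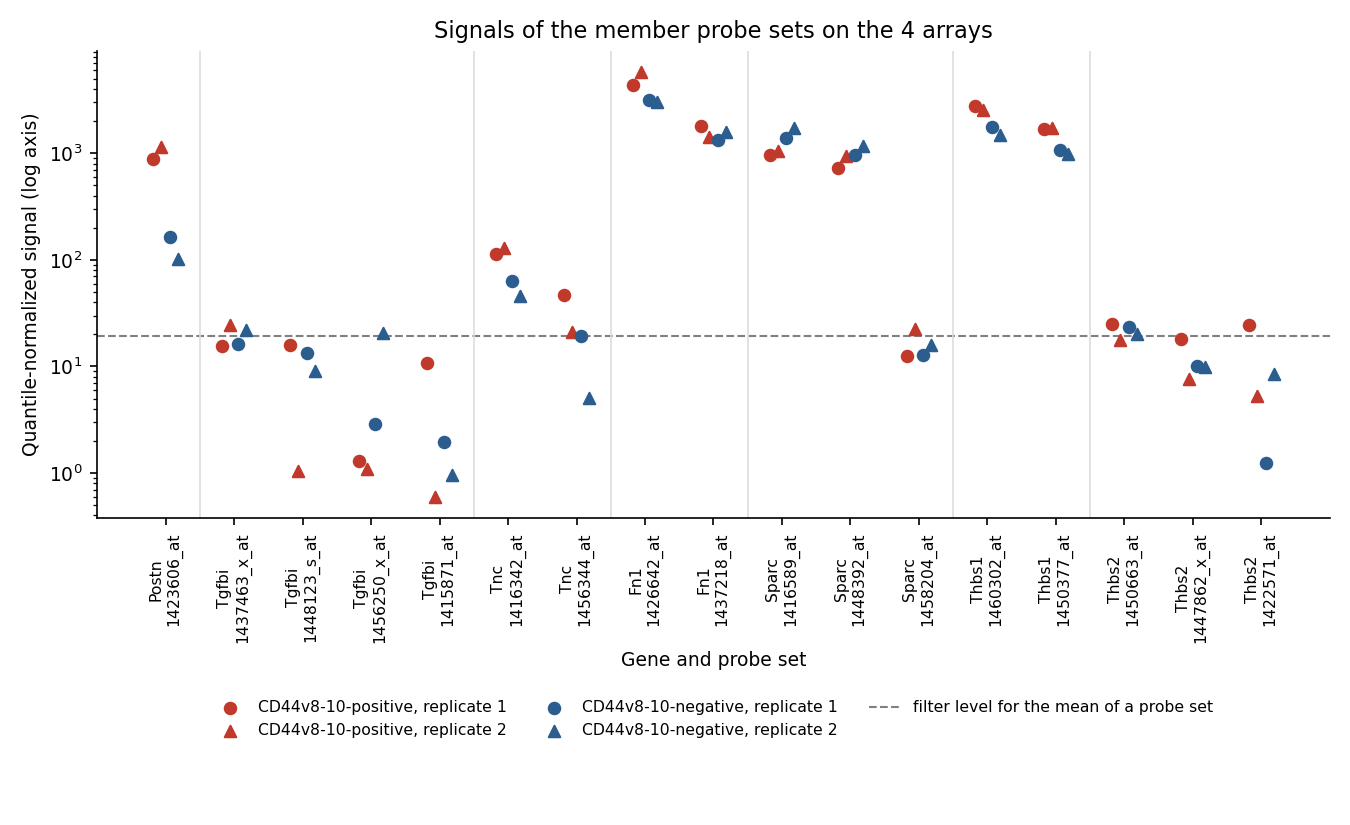
Quantile-normalized signal (log axis) of the 17 member probe sets on the 4 arrays, with red for positive and blue for negative samples, circles for replicate 1, triangles for replicate 2 and the filter level of 19.4 as a dashed line. Postn shows the widest gap between the groups, the brightest probe sets of Tnc, Fn1 and Thbs1 have both red points above both blue points, those of Sparc have the reverse, and Tgfbi and Thbs2 lie around or below the level.

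Postn was much more abundant in the CD44v8-10-positive cells. Its single probe set, 1423606_at, had signals of 892 and 1136 in positive cells against 163 and 102 in negative cells. The lowest positive value thus lay far above the highest negative one, and all 4 arrays were above the filter level. The mean was 1014 ± 172 in positive and 133 ± 42.9 in negative cells (SD, n = 2 each). The log2 fold change was 2.81 ± 0.25 (SE, 95% interval 2.26 to 3.36), or 7.03-fold. Between replicates the log2 values differed by 0.34 in the positive and 0.60 in the negative group. Before normalization the values were 850 and 979 against 123 and 150, so the groups did not overlap there either.

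By size of difference Postn ranked 4 among 11956 genes, counted from the highest. It was the 1 member of 6 tested that passed an adjusted p of 0.05 (limma, Benjamini-Hochberg over all genes), where 9 genes, or 0.0753%, passed. Over single probe sets it was again 1 of 10 members, against 0.0333% of 27022. Because the gene was selected on this contrast, these counts describe it and add no evidence. Its call held in 12 of 15 alternative settings, with the 4 that leave out an array among them. It did not hold with no scaling between arrays (log2 fold change 2.61), with no filter or with no intensity trend (2.81 in both). Over single probe sets it was also lost without positive replicate 2 (2.66). Among all genes the 9 calls were all higher in positive cells, and with arrays centred on their medians there were 20 higher and 5 lower.

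Markers named for cell types of tumour tissue were read on the same arrays, although the samples were a cultured line with no host. The summed signal of 10 fibroblast markers was 207 and 162 in positive cells against 233 and 221 in negative cells, with 3 of the 10 above the filter. That gap rested on Pdgfra, a receptor for platelet-derived growth factors: without it, a choice made after seeing the data, the sums were 160 and 129 in positive cells against 125 and 144 in negative cells and overlapped. The relation of these marker signals to those of Postn was not tested. The collagen genes Col1a1 and Col3a1, together with Pdgfrb and Thy1, were below the filter level on all 4 arrays. Of the 3 above it, Pdgfra differed by -0.94 on the log2 scale (limma adjusted p 0.980), Col1a2 by 0.04, and Pdpn, the membrane glycoprotein podoplanin, by 0.37 (28.0 and 31.1 against 17.0 and 21.8, limma adjusted p 0.985). The sums of 10 macrophage markers (545 and 701 against 474 and 436) and 6 endothelial markers (88.4 and 94.3 against 45.9 and 49.2) did lie higher in the positive samples. Their relation to the Postn signals was not tested. Of these lists, 6 macrophage and 0 endothelial markers were above the level, and Itgam and Fcer1g were below it on every array. Among the endothelial markers Cdh5 alone had both positive signals above both negative ones (50.025 and 18.2 against 2.875 and 7.15). It was singled out after seeing the data. Tie1 had the reverse and the rest overlapped, so the gap in the endothelial sums was not shared across that list. The sums of 6 named lymphocyte markers (59.4 and 71.3 against 71.1 and 42.6) and 3 named adipocyte markers (3.45 and 22.9 against 11.2 and 17.7) overlapped. In such bulk samples fewer cells with RNA of a marker and less of it per cell cannot be told apart.

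Tgfbi, the paralog, gave no such signal. The brightest of its 4 probe sets, 1437463_x_at, had 15.7 and 24.6 in positive cells against 16.2 and 21.8 in negative cells. Its mean log2 value of 5.14 fell just under the filter level of 5.15, while the dimmest member inside it, 1456344_at of Tnc, had 5.18. Probe set 1448123_s_at had 15.9 and 1.05 against 13.3 and 9.0, and 1415871_at had 10.8 and 0.6 against 1.95 and 0.95. These were below the level on all 4 arrays. In 1456250_x_at the positive values of 1.30 and 1.10 lay below the negative ones of 2.88 and 20.7, but 1 array alone was above the level. No fold is given for Tgfbi because its probe sets had mean values below the filter.

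Tnc encodes tenascin C, which loosens cell adhesion to fibronectin. Its brighter probe set, 1416342_at, had signals of 115 and 130 in positive cells against 63.9 and 45.9 in negative cells. Both positive arrays were above both negative arrays, with a log2 fold change of 0.97 ± 0.28 (SE, 95% interval 0.36 to 1.59), or 1.96-fold. The second probe set, 1456344_at, had 46.8 and 21.1 against 19.4 and 5.10, also without overlap, and a log2 fold change of 0.82 ± 0.45 (SE). Both of its negative values were under the filter level, so it passed through the positive group alone and its fold is no exact size.

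Fn1 encodes fibronectin, the fibrillar glycoprotein to which periostin and tenascin C bind. Probe set 1426642_at had 4351 and 5789 in positive cells against 3166 and 3008 in negative cells, with no overlap. Its log2 fold change was 0.70 ± 0.17 (SE), or 1.62-fold. The other probe set, 1437218_at, had 1814 and 1424 against 1326 and 1584, and here the groups overlapped, with a log2 fold change of 0.15 ± 0.20 (SE). The 2 probe sets of this gene therefore did not give the same picture, and their mean had 0.42. The positive replicates differed in opposite directions in them: replicate 2 was the higher one in 1426642_at and the lower one in 1437218_at. Which part of the transcript each one reads was not analysed here.

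Thbs1 encodes thrombospondin 1, a ligand of CD36 and CD47 that can release active TGF-beta from its latent form. Its probe set 1460302_at had signals of 2802 and 2569 in positive cells against 1780 and 1493 in negative cells. The second, 1450377_at, had 1690 and 1737 against 1084 and 983. In both the positive arrays lay above the negative ones, and the values before normalization did not overlap either. The log2 fold changes were close, 0.71 ± 0.18 and 0.72 ± 0.18 (SE), or 1.64-fold and 1.65-fold.

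Its relative Thbs2, thrombospondin 2, was at the filter level. The brightest of its 3 probe sets, 1450663_at, had 24.9 and 17.6 in positive cells against 23.4 and 20.2 in negative cells. The groups overlapped, with a log2 fold change of -0.03 (95% interval -0.91 to 0.86 in the fit over genes), an interval too wide to exclude a change of the size seen in Thbs1. The other probe sets, 1447862_x_at and 1422571_at, had means below the filter and signals between 1.25 and 24.6.

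Sparc, a collagen-binding glycoprotein also called osteonectin, was the one member whose tested probe sets both lay lower in positive cells. Probe set 1416589_at had 973 and 1041 in positive cells against 1388 and 1735 in negative cells, with a log2 fold change of -0.62 ± 0.20 (SE). Probe set 1448392_at had 726 and 941 against 956 and 1172, with -0.35 ± 0.22 (SE). The gap in the second was narrow, and its values before normalization (685 and 816 against 750 and 1618) overlapped. The third probe set, 1458204_at, had a mean under the filter and signals of 12.5 to 22.3.

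**Figure D2:**
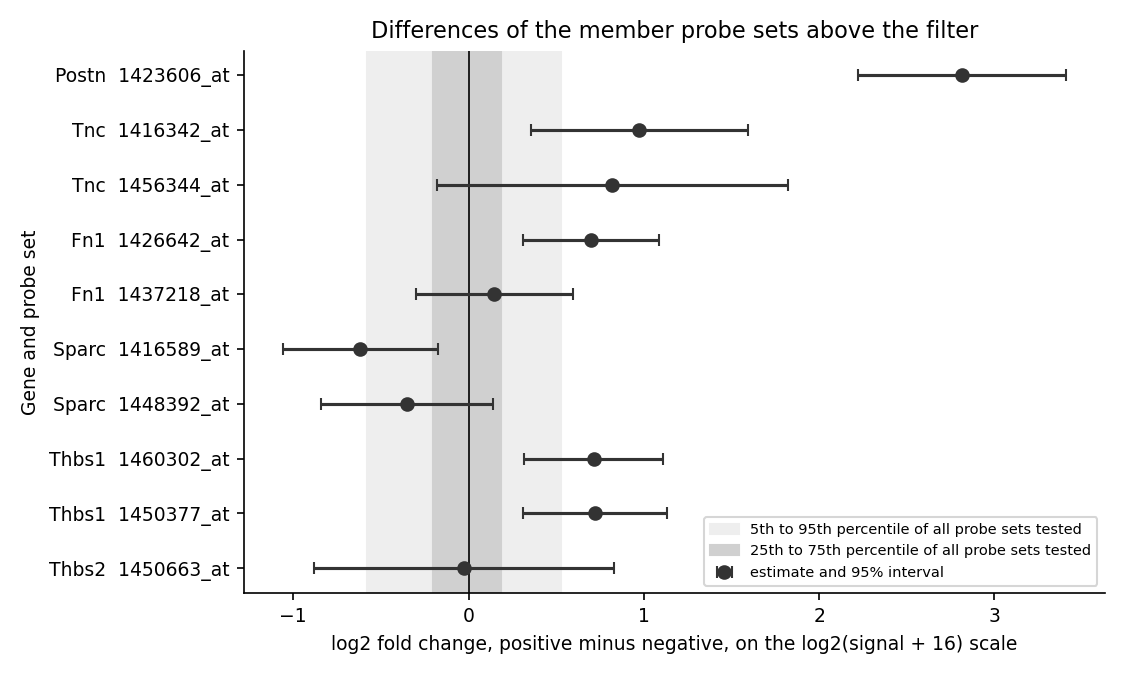
Log2 fold changes (positive minus negative, on the log2(signal + 16) scale) of the 10 member probe sets above the filter, with points for estimates, bars for 95% intervals and grey bands for the spread of all 27022 probe sets tested. Postn stands at 2.81, Tnc, Thbs1 and the first Fn1 probe set between 0.70 and 0.97, the second Fn1 probe set and Thbs2 near 0, and the Sparc probe sets at -0.62 and -0.35.

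Across the family the direction was thus mixed. Of the 6 genes tested 5 had groups without overlap in their brightest probe set, 4 of them higher and 1 lower in the positive cells. Over all genes 32.3% had such groups, and over all probe sets 33.2%, against 8 of 10 among the member probe sets. The 8 came from the same 5 genes. They include 1456344_at of Tnc, which passed the filter through the positive group alone. They also include 1448392_at of Sparc, whose values before normalization overlapped. The rule used this contrast, and with 2 arrays per group such a gap is common. The median log2 fold change of the 6 genes was 0.71, against 0.03 over all 11956 genes, and the choice of genes bears on that median too. None of the 5 tested members other than Postn passed the threshold over all genes by limma, in the reported fit or in any of the 15 alternatives.

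**Figure D3:**
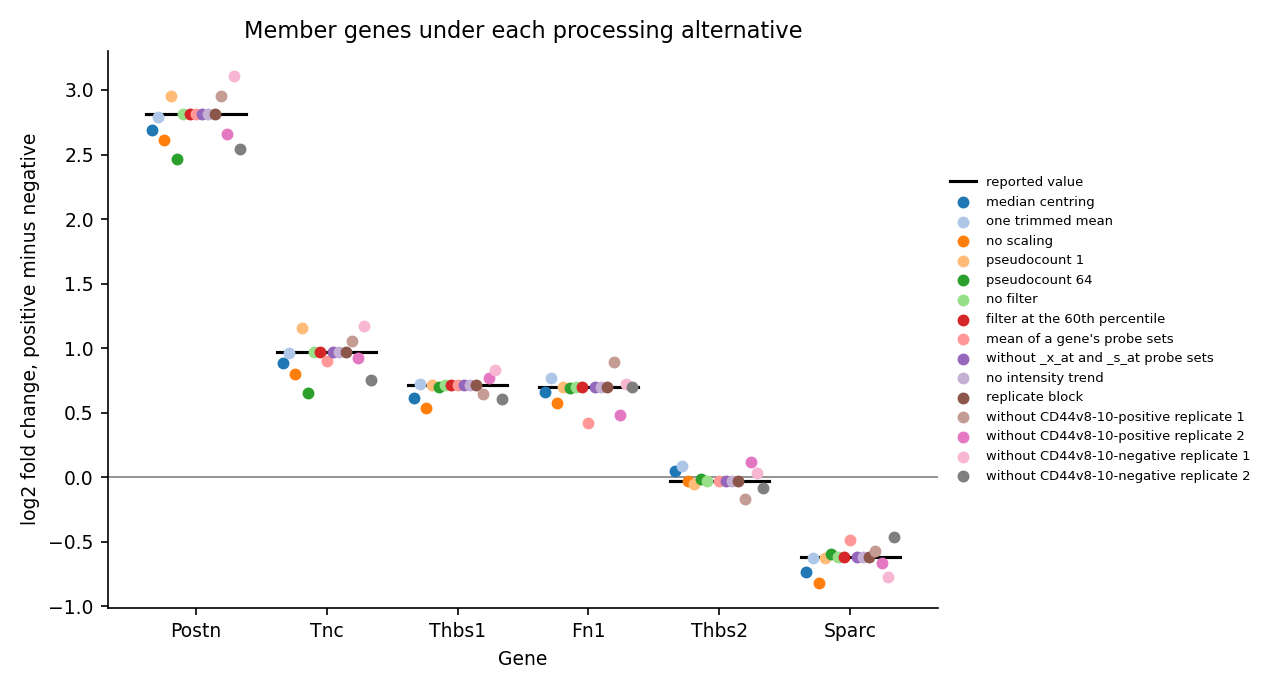
Log2 fold change (positive minus negative) of the 6 tested member genes, with a black line for the reported value and a coloured point for each processing alternative. The points of Postn, Tnc, Thbs1 and Fn1 stay above 0 and those of Sparc below 0, while those of Thbs2 fall on both sides.

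Under the 15 alternatives the tested member genes kept their sign, with the exception of Thbs2. Postn ran from 2.46 (pseudocount 64) to 3.11 (without negative replicate 1). Tnc ran from 0.65 to 1.17, Thbs1 from 0.54 to 0.83, and Fn1 from 0.42, with the mean of its probe sets, to 0.89. Sparc ran from -0.81 with no scaling to -0.47 without negative replicate 2. With no scaling the median of all genes moved from 0.03 to -0.15, and Thbs1 at 0.54 and Sparc at -0.81 shifted the same way. Thbs2 changed sign among the alternatives (-0.17 to 0.12).

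The genes whose profiles were nearest to that of Postn were found by the root mean square difference of gene-centred log2 values over the 4 arrays. They were Rab25 (0.37), Cldn7 (0.39), Krt14 (0.42), Cldn3 (0.45) and Engase (0.54). By limma Rab25, Cldn7, Krt14 and Cldn3 also passed the threshold over all genes, with log2 fold changes of 3.25, 2.31, 1.97 and 1.96. Engase, at 1.76, did not. Rab25 is a small GTPase of membrane recycling, Cldn7 and Cldn3 are tight junction claudins, Krt14 is a basal keratin, and Engase is a cytosolic deglycosylating enzyme. None of the other tested member genes was among them, and Tgfbi and Spp1, which were not tested, could not appear. Rab25 (5.78 and 6.13) and Engase (8.83 and 3.77) were under the filter level on both negative arrays, so their distances and places in this order depend on dim values and the pseudocount. The measure rests on 4 arrays in 2 groups, so a difference of like size between the groups brings genes near each other.

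**Figure D4:**
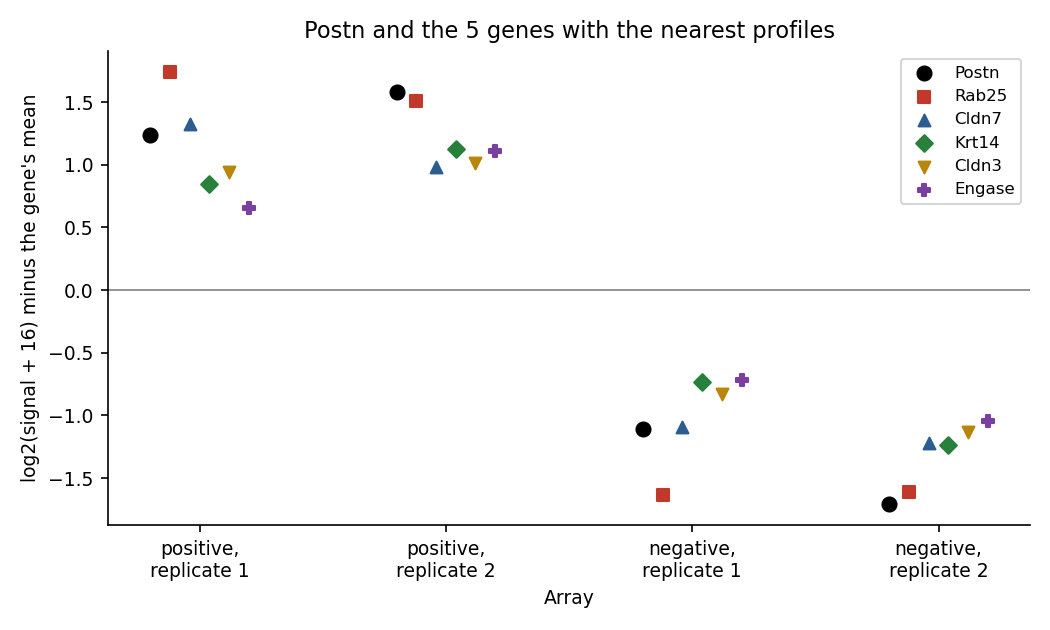
Log2(signal + 16) minus the gene's own mean for Postn and the 5 genes with the nearest profiles, on each of the 4 arrays. All 6 genes are above their mean on both positive arrays and below it on both negative arrays.

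No further matricellular gene passed the threshold. Of 30 listed, all with a probe set, 9 were above the filter and 9 others were below the level on all 4 arrays. In the limma fit over all genes 0 of the 9 tested passed. At an unadjusted p under 0.05 there were 2, both higher, against a background of 4.45% of all genes in either direction, and the median log2 fold change was 0.20. Ccn2, connective tissue growth factor, had signals of 5881 and 5583 in positive cells against 4376 and 4200 in negative cells, or 0.42 ± 0.14 on the log2 scale (SE, adjusted p 0.980 by limma). Ccn1, its relative, had 3572 and 4393 against 3376 and 3503 (0.20, limma adjusted p 0.985). Among the alternatives Ccn1 ran from 0.02, with the mean of its probe sets, to 0.35 without positive replicate 1. Spock2, a testican proteoglycan of the Sparc family, had 37.4 and 76.3 against 12.7 and 8.10 and differed by 1.42 on the log2 scale (adjusted p 0.826 by limma). Both negative values were under the filter level, so it passed through the positive group alone. Its size is not exact, and its place among the 2 counted above depends on the filter.

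No receptor of these proteins passed the threshold, and the largest differences, in Itga9 and Itgb6, lay beyond the 95th percentile of all genes (0.54). Of 18 listed 14 were tested, their median difference was 0.12 with 11 positive and 3 negative values, and limma called 0 over all genes. At an unadjusted p under 0.05 there were 2 of the 14, both higher, against 4.45% of all genes in either direction. Itgb1, the integrin beta chain shared by most matrix receptors, differed by 0.27 on the log2 scale (95% interval -0.11 to 0.65), and Cd44 0.11 (-0.26 to 0.48; -0.06 with no scaling and -0.05 without positive replicate 1). Itgb6, a TGF-beta activating integrin chain of epithelia, had 87.1 and 74.8 in positive cells against 44.3 and 30.5 in negative cells (0.87, limma adjusted p 0.985). Itga9, whose product binds tenascin C and osteopontin, had 46.3 and 26.5 against 17.0 and 4.70 (0.98, limma adjusted p 0.985). Both negative values were under the filter level, so Itga9 passed through the positive group alone. Its place among the 2 counted above depends on the filter, and its size is not exact. Itga9 was 0.42 with a pseudocount of 64 and 0.59 to 1.37 over the negative arrays left out. It was tested in 11 of the 15 alternatives, and not with either positive array left out. For periostin's own integrin chains, named for their role after their values were seen, Itgav had -0.24 and Itgb5 0.11, and Itgb3 was not above the filter (signals of 4.40 to 20.4).

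Genes that assemble or process this matrix had 18 of 24 members tested, 9 positive and 9 negative differences and a median of -0.02. By limma 0 passed, and 1 was higher and 4 lower at an unadjusted p under 0.05. Over all genes 4.45% had such a p, 321 higher and 211 lower. Loxl3, a lysyl oxidase that cross-links collagen, had 44.3 and 53.2 in positive cells against 120 and 147 in negative cells, or -1.21 ± 0.28 on the log2 scale (SE, adjusted p 0.363 by limma, and 0.0494 with arrays centred on their medians). Pcolce, which enhances procollagen cleavage by Bmp1, had 355 and 273 against 485 and 856 (-1.01, limma adjusted p 0.609). Without negative replicate 2 Pcolce had -0.62. Adamts1, a protease of matrix proteoglycans and thrombospondin 1, had 1546 and 1563 against 1000 and 813 (0.78, limma adjusted p 0.476). Fbln2, a fibronectin-binding fibulin, had 1332 and 2551 against 1358 and 1983, a log2 fold change of 0.17 that changed sign in 4 alternatives. Bmp1, which periostin is known to anchor in the matrix, had -0.07 and was chosen after its value was seen.

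Signals and factors known to act on matricellular genes had the narrowest range of the 4 related lists. Of 32 listed 24 were tested, 10 with positive and 14 with negative differences that ran from -0.31 to 0.32 around a median of -0.07. By limma 0 passed over all genes and 0 had an unadjusted p under 0.05. The brightest were Ets1, with 2414 and 2448 in positive cells against 2105 and 3575 in negative cells (-0.17, and 0.22 without negative replicate 2), and Smad4, with 2536 and 1989 against 2660 and 2734 (-0.26, limma adjusted p 0.985). Tgfb1, a known inducer of Postn and Tgfbi, had 0.29 (95% interval -0.22 to 0.80), and the transcription factor Twist1, a known activator of Postn, -0.10 (-0.70 to 0.50). Both were named for this role after their values were seen.

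**Figure D5:**
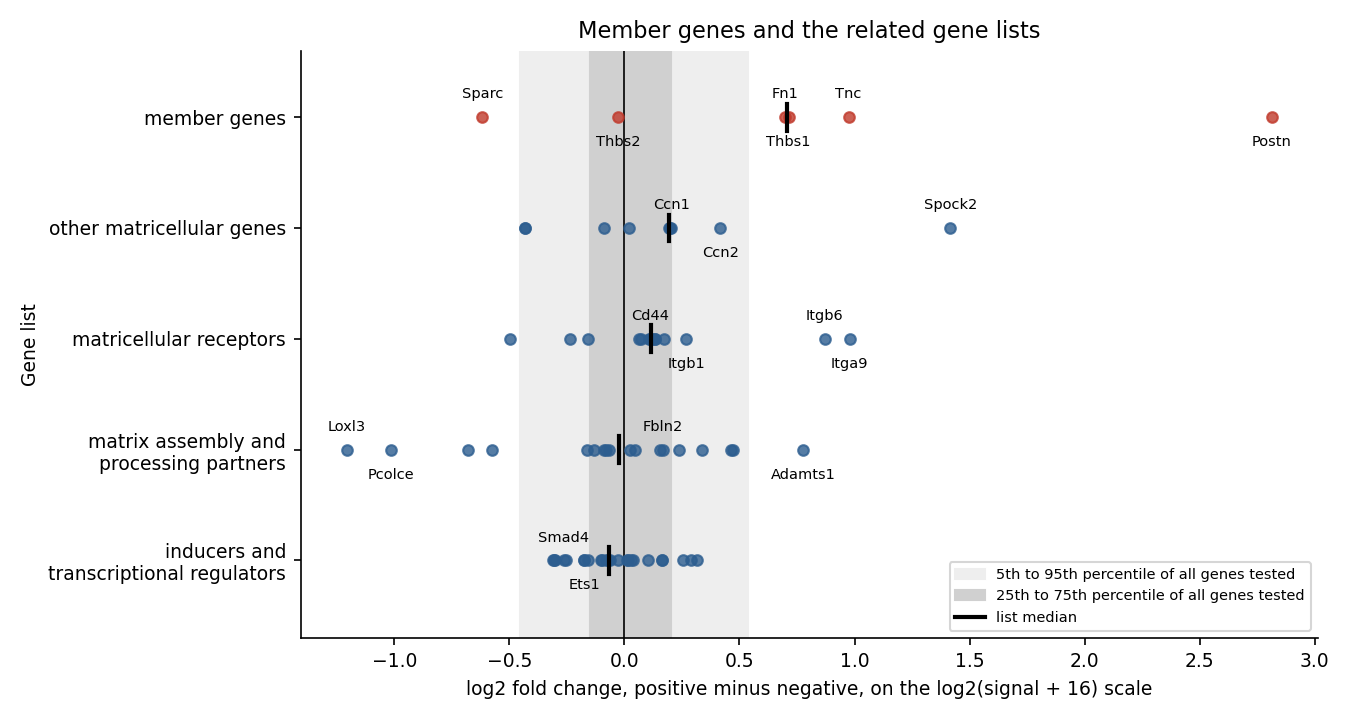
Log2 fold changes (positive minus negative, on the log2(signal + 16) scale) of the 6 tested member genes in red and of the related gene lists in blue, with black bars for list medians and grey bands for the spread of all 11956 genes tested. Postn at 2.81 lies beyond every gene of the 4 related lists, the highest of which is Spock2 at 1.42 and the lowest Loxl3 at -1.21.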

How the data were processed

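Total RNA of 4 samples (2 per group, from the sample labels) was measured on 4 one-colour arrays of 45101 probe sets. The deposited values were linear intensities of 0.1 to 22695.6. GCOS, Affymetrix software, is named without a role in the submitters' processing notes. How probe sets were summarised, corrected and scaled is not given in the sources used here. Names came from the 2016 annotation of the platform, and 34741 of 34945 probe sets with 1 symbol matched the reference gene table (GRCm38.p6) by gene number.

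Values were quantile normalized and taken as log2(value + 16). After removal of 64 controls, the 27022 probe sets with a mean of at least the 40th percentile were kept. The comparison used limma (version 3.58.1, R 4.3.3) with two-sided eBayes, intensity trend, Benjamini-Hochberg and a threshold of 0.05. It was run per probe set and, with the brightest probe set per gene, over 11956 genes. The fit was also run on simulated data with independent noise as a check of the code, which does not test the calls on these arrays. The median standard error over genes was 0.24, and the 2 arrays per group limit the precision.

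The members and gene lists were chosen with earlier results of these data known. Named genes were all members, and from each list those past the threshold, the up to 3 largest differences with separated groups and an unadjusted p under 0.05, and the 2 brightest, plus the 5 profiles nearest Postn. Alternatives changed the normalization, pseudocount, filter, probe sets, trend, block or arrays.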

Additional observations from a re-analysis of the deposited data

How the results depend on the processing

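Over 15 alternatives, all planned, the log2 fold changes of Postn, Tnc, Thbs1, Fn1 and Sparc kept their direction. The count of member genes past the threshold was 1, and 0 with no scaling, no filter or no intensity trend; that of member probe sets was 1, and 0 in the same settings. Leaving out each array gave 1 in every case for genes and 0 to 1 for probe sets, with 0 without positive replicate 2. The count for matrix assembly and processing partners was 0, and 1 (Loxl3) with median centring. The other lists had 0 in every setting.

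Over all genes 9 were called, against 25 with median centring, 3 with no scaling, 3 with no filter, 2 with no intensity trend, 16 without positive replicate 1 and 18 with the replicate block. Over all probe sets 9 were called, against 17, 4, 0, 2, 15 and 21 in these settings, and 1 without positive replicate 2. With no filter, dim features enter both the fit and the adjustment. The cause of each of these shifts was not tested.

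Direction changed in genes near 0. Cd44 was -0.057 with no scaling and -0.048 to 0.26 over the arrays left out. Fbln2 was -0.016 with no scaling, -0.15 with the mean of its probe sets and -0.30 to 0.63 over the arrays left out. Ets1 was -0.55 to 0.22 over the arrays left out.

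With the replicate number as a block, 1 member gene was called, as without it. The labels give the number no shared day or culture, and the deviations of same-numbered arrays correlated at 0.12 over genes. With 2 pairs this does not settle whether the numbers pair the samples, and they were not treated as paired. A dim signal near the filter level limits what can be said of Tgfbi and Thbs2.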
